A study of Drosophila melanogaster with 17 samples.

Results

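The genes described here encode the nuclear subunits of the oxidative phosphorylation chain of Drosophila melanogaster. They were chosen by symbol, as all genes whose symbol in the authors' sheets begins with ND-, COX and a digit, UQCR, ATPsyn, SdhA to SdhD, RFeSP, Cyt-c1 or Cyt-c-p. This gave 68 genes of 17807 counted: 33 of complex I (ND-), 5 of complex II (Sdh), 8 of complex III (UQCR, RFeSP and Cyt-c1), 8 of complex IV (COX), 13 of complex V (ATPsyn) and Cyt-c-p. Of these, 6 are paralogs with an L in the name (ND-51L1, SdhBL, UQCR-11L, COX4L, ATPsynbetaL and ATPsynepsilonL), and the other 62 form the set for which medians are given. They lie on all major chromosome arms, with 13 on 2L, 14 on 2R, 14 on 3L, 14 on 3R, 11 on X and 2 on chromosome 4.

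RNA was sequenced from GFP-positive cells sorted from adult midguts, in which escargot (esg) drives Gal4, in order to compare what the bHLH factors Daughterless (Da) and Scute (Sc) do in progenitor cells. All flies, controls included, carried esg-Gal4, UAS-GFP and tub-Gal80[ts], were raised at 18 °C and spent 2 days at 29 °C, so that transgenes were active only in adults and only where esg-Gal4 was. Batch 1 held 3 libraries with UAS-da-RNAi (da knock-down), 2 with UAS-da (da overexpression) and 3 controls whose label names no further transgene. Batch 2 held 3 libraries with UAS-da:da, a tethered homodimer of Da, 3 with UAS-scute (scute overexpression) and 3 controls of its own. Each library came from 20000 to 40000 sorted cells of about 100 pooled midguts, and its RNA was amplified before library preparation.

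Complexes I and II pass electrons from NADH and succinate to ubiquinone, complex III passes them on to cytochrome c, and complex IV hands them to oxygen, while complexes I, III and IV pump protons that drive ATP synthesis by complex V. Most subunits are encoded in the nucleus and imported, a few core subunits are encoded in the mitochondrial genome, and complex II is also an enzyme of the TCA cycle. In the fly midgut, enterocytes are known for abundant mitochondria, and the mitochondrial activity of progenitors is known to bear on their differentiation.

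Batch 1 libraries held 33889877 to 40868714 counts, and batch 2 libraries, in which both mates of a pair add a count, held 47136298 to 66679229. The target genes followed the labels: da was at 20.9 to 34.8 CPM (counts scaled to a common library size with TMM factors) in da knock-down and 845 to 897 in da overexpression, against 92.4 to 137 in batch 1 controls. It was at 199 to 246 CPM in da:da libraries, against 75.3 to 79.0 in batch 2 controls, and sc was at 1754 to 2646 CPM in scute libraries, against 1.72 to 1.83. The progenitor gene esg was well expressed in controls, at means of 619 CPM in batch 1 and 651 CPM in batch 2. Markers of other gut cells were also present: 14 enteroendocrine markers summed to 4146 to 4572 CPM in batch 2 controls and to 191 to 249 CPM in batch 1 controls. In bulk RNA of sorted cells, fewer cells of a type and less RNA per cell cannot be told apart.

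Levels differed between complexes. Genes were compared per kilobase of exon, which takes even coverage for granted and counts shared exon bases, whose reads were left out, in the length. On this scale the median of the 11 complex V genes without paralogs was 499 CPM/kb in batch 1 controls and 305 CPM/kb in batch 2 controls. Complex IV followed at 313 and 239.7 CPM/kb, whereas the 32 complex I genes had medians of 83.6 and 77.4 CPM/kb. The gene ATPsynC, which encodes the membrane ring of the ATP synthase rotor, was highest in both batches (1067 ± 193 and 893 ± 20.7 CPM/kb, SD, n = 3). In batch 1 controls it was followed by ATPsynO, ATPsynbeta and ATPsynB, at 792 ± 46.7, 685 ± 86.1 and 675 ± 47.0 CPM/kb, of which the last 2 differed by less than their spread. In batch 2 controls the next were ATPsynbeta and ATPsynB, at 749.8 ± 42.1 and 406.5 ± 38.7 CPM/kb.

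The order of the 62 genes was similar in both sets of controls (Spearman rho = 0.90 across genes, which are not independent replicates). Single genes moved between batches, from ATPsynO at 0.421 times its batch 1 level to UQCR-C2 at 2.47 times and ND-AGGG at 8.96 times. Read length (50 and 150 nt), run and batch cannot be told apart here, so levels were compared only within a batch. The 6 paralogs averaged at most 1.48 CPM in any group. All 68 genes passed the filter on low counts in batch 2 and 64 did in batch 1, where COX4L, ND-51L1, SdhBL and UQCR-11L did not.

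The sum of the 68 genes was 16678 to 19030.5 CPM (TMM-scaled) in da knock-down and 9399.9 and 12675 CPM in da overexpression, against 12263 to 14506 CPM in batch 1 controls. As a share of all counts, it was 1.47% to 1.68% in da knock-down and 1.07% and 1.23% in da overexpression, against 1.299% to 1.62% in the controls. In da knock-down the groups were therefore apart on the first scale and overlapped on the second. In batch 2 the sum was 7304 to 8744 CPM in da:da libraries and 6734 to 7435 CPM in scute libraries, against 10608 to 11654.5 CPM in controls, and the share of counts was 0.724% to 0.817% and 0.804% to 0.909%, against 0.915% to 1.01%.

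**Figure D1:**
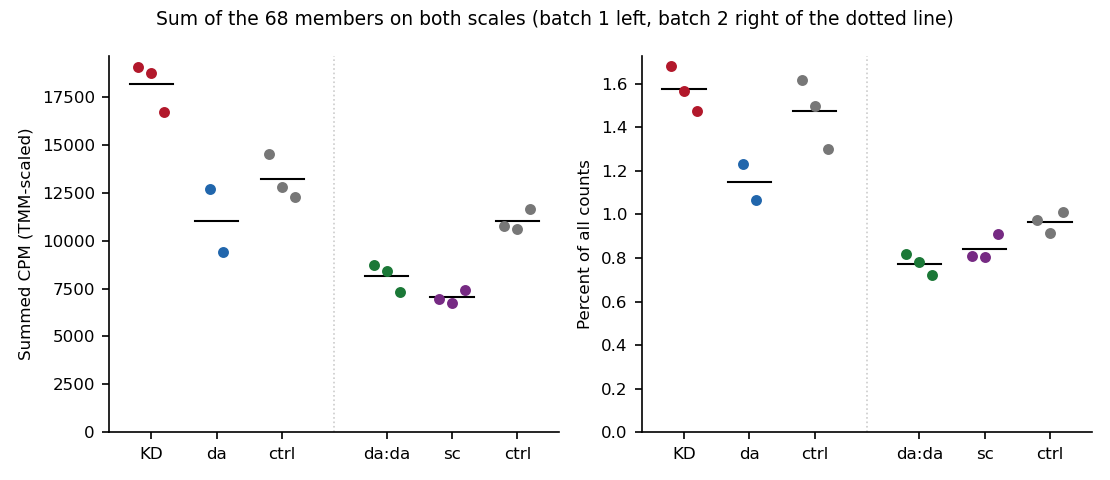
Sum of the 68 genes in each library, as TMM-scaled CPM (left) and as percent of all counts (right). Points are libraries and bars are group means (KD, da knock-down; ctrl, control). The 3 da knock-down libraries lie above all batch 1 controls on the left panel, and on the right panel 1 lies above them and 2 among them, while da:da and scute libraries lie below their controls on both.

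Without TMM, that is with library size as the sole scaling, the median of all genes tested moved by -0.37 on the log2 scale for da knock-down and by 0.49 for scute against control. The share of counts from the 93 cytosolic ribosomal protein genes moved the other way. It was 35.9% to 38.9% of a library in da knock-down, overlapping the 31.8% to 36.9% of batch 1 controls. In scute libraries it was 15.5% to 20.04%, against 24.4% to 27.5% in batch 2 controls. With TMM factors computed without these genes and those of the mitochondrial genome, the median of the 62 genes was 0.46 in da knock-down, -0.24 with da, -0.40 with da:da and -0.64 with scute. As a share of the counts outside those genes, the 68 genes held 2.98% to 3.26% in da knock-down and 1.89% and 2.30% with da, against 2.49% to 3.001% in batch 1 controls. In batch 2 that share was 1.22% to 1.46% with da:da and 1.29% to 1.35% with scute, against 1.76% to 1.91% in controls. Changes below are on the TMM scale, which puts the median gene near 0.

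Relative to the mean of their controls, their median log2 level was 0.48, 0.51 and 0.32 in the 3 da knock-down libraries, -0.02 and -0.50 in the 2 da overexpression libraries, and 0.09, -0.00 and -0.08 in the batch 1 controls. In batch 2 it was -0.28, -0.37 and -0.60 in the da:da libraries and -0.58, -0.60 and -0.51 in the scute libraries, against -0.03, -0.08 and 0.10 in controls. The knock-down, da:da and scute libraries all lay outside the range of their controls, but the 2 da overexpression libraries disagreed, with replicate 1 among the controls and replicate 2 well below them.

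**Figure D2:**
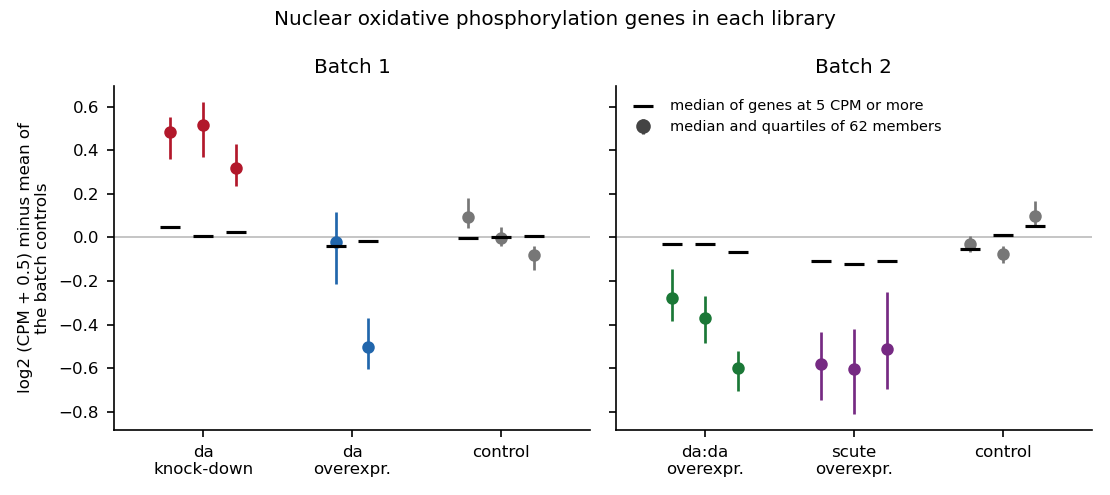
Position of the 62 genes in each library on the log2 (CPM + 0.5) scale, relative to the mean of the controls of the same batch. Points are medians over genes, lines span the quartiles over genes and black bars are medians of all genes that average 5 CPM or more in the batch. The knock-down medians lie at 0.32 to 0.51, the da:da and scute medians at -0.60 to -0.28, and the 2 da overexpression libraries lie apart from each other.

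Knock-down of da addressed what loss of the E protein does to progenitors. With TMM scaling, 28 of the 64 genes tested were higher in da knock-down than in control (edgeR, adjusted p under 0.05), where 11.2% of all genes tested were higher. None was lower, at an unadjusted p under 0.05 or with DESeq2 either, where 9.16% of all genes were lower. Of the 62 genes without paralogs, 61 had a positive log2 change, with a median of 0.45 (quartiles 0.33 and 0.53), beside -0.01 over all genes tested. In 51 genes every knock-down library was above every control, beside 20.5% of all genes, and in none of the 64 was every one below, beside 19.9%.

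In complex I, 12 of 32 genes rose. The core iron-sulfur subunit gene ND-75 was at 78.8, 72.4 and 80.5 CPM in da knock-down, against 52.4, 61.0 and 51.3 CPM in control (log2 change 0.49 ± 0.11 SE, adjusted p = 0.015). The accessory subunit gene ND-39 was at 97.7, 102 and 92.8 CPM, against 63.8, 66.7 and 68.4 CPM in control (0.56 ± 0.11, adjusted p = 0.00875). In both genes all knock-down libraries lay above all controls. The largest rise in complex I was that of the accessory subunit gene ND-B14.7 (0.66 ± 0.18, adjusted p = 0.028), while the core subunit genes ND-23 (0.30 ± 0.11, adjusted p = 0.0745) and ND-30 (0.48 ± 0.17, adjusted p = 0.081) and the accessory gene ND-42 (0.47 ± 0.15, adjusted p = 0.0525) did not pass.

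Complex II, succinate dehydrogenase, had 1 called gene of 4 in the knock-down. SdhB, its iron-sulfur subunit, was at 54.0, 54.4 and 52.2 CPM in da knock-down, against 36.7, 40.3 and 35.8 CPM in control (0.51 ± 0.14, adjusted p = 0.033). SdhA, its flavoprotein subunit, was at 359.6, 275 and 317 CPM, against 271, 249 and 246 CPM (0.31 ± 0.13, adjusted p = 0.13), so its groups were apart but the difference did not pass. In complex III, 4 of 7 genes rose, among them the core protein genes UQCR-C1 (0.59 ± 0.14, adjusted p = 0.017) and UQCR-C2 (0.65 ± 0.18, adjusted p = 0.035) and the gene of the Rieske iron-sulfur protein, RFeSP (0.56 ± 0.15, adjusted p = 0.0305). Cyt-c1, the haem subunit, did not pass (0.32 ± 0.17, adjusted p = 0.22), and UQCR-11 was the sole gene of the 62 with a negative change (-0.12 ± 0.13, adjusted p = 0.55).

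In complex IV, 5 of 7 genes rose in the knock-down. COX5A, a structural subunit gene, was at 654, 696 and 526 CPM in da knock-down, against 405, 399.5 and 377 CPM in control (0.67 ± 0.16, adjusted p = 0.017), with no overlap. COX5B showed the largest rise of all members (0.69 ± 0.16, adjusted p = 0.015), whereas COX4 did not pass (0.37 ± 0.19, adjusted p = 0.21). In complex V, 5 of 11 genes rose. ATPsynB, of the peripheral stalk, was at 993, 1017 and 911 CPM in da knock-down, against 648, 570.2 and 641 CPM in control (0.65 ± 0.15, adjusted p = 0.013), and ATPsynO, which joins the stalk to the catalytic head, and ATPsynF rose as well (0.56 ± 0.17, adjusted p = 0.04, and 0.42 ± 0.13, adjusted p = 0.042). The central stalk genes ATPsyngamma (0.42 ± 0.16, adjusted p = 0.0903) and ATPsyndelta (0.39 ± 0.14, adjusted p = 0.0824) did not pass, and neither did ATPsynbeta, which encodes the catalytic subunit. It was at 2557, 2065 and 2108 CPM, against 1869.5, 1542 and 1491 CPM (0.46 ± 0.16, adjusted p = 0.072), with separate groups. Cyt-c-p, the mobile carrier between complexes III and IV, rose (170.2, 221 and 179.7 CPM, against 141, 109 and 110.5 CPM, 0.66 ± 0.15, adjusted p = 0.013).

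The number of genes called in the knock-down depended on single libraries. It was 7, 3 and 10 without control replicate 1, 2 or 3, and 9 and 7 without knock-down replicate 1 or 2. Over all genes tested, 646, 526 and 1048 were higher without those controls and 739 and 758 without those knock-down libraries. With every library in the fit it was 1073. With the replicate number as a block and only these 2 groups in the fit, 45 members were higher, beside 1484 of all 8852 genes tested. There ATPsynbeta (0.45, adjusted p = 0.018), ATPsynC (0.435, adjusted p = 0.0294), ND-23 (0.29, adjusted p = 0.0449), ND-30 (0.47, adjusted p = 0.0091), ND-42 (0.45, adjusted p = 0.024) and ND-B18 (0.30, adjusted p = 0.0297) passed. With library size as the sole scaling the median of the 62 genes was 0.09, beside -0.37 over all genes tested. None of them was higher and UQCR-11 was lower, beside 484 and 2682 of all 9540 genes.

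**Figure D3:**
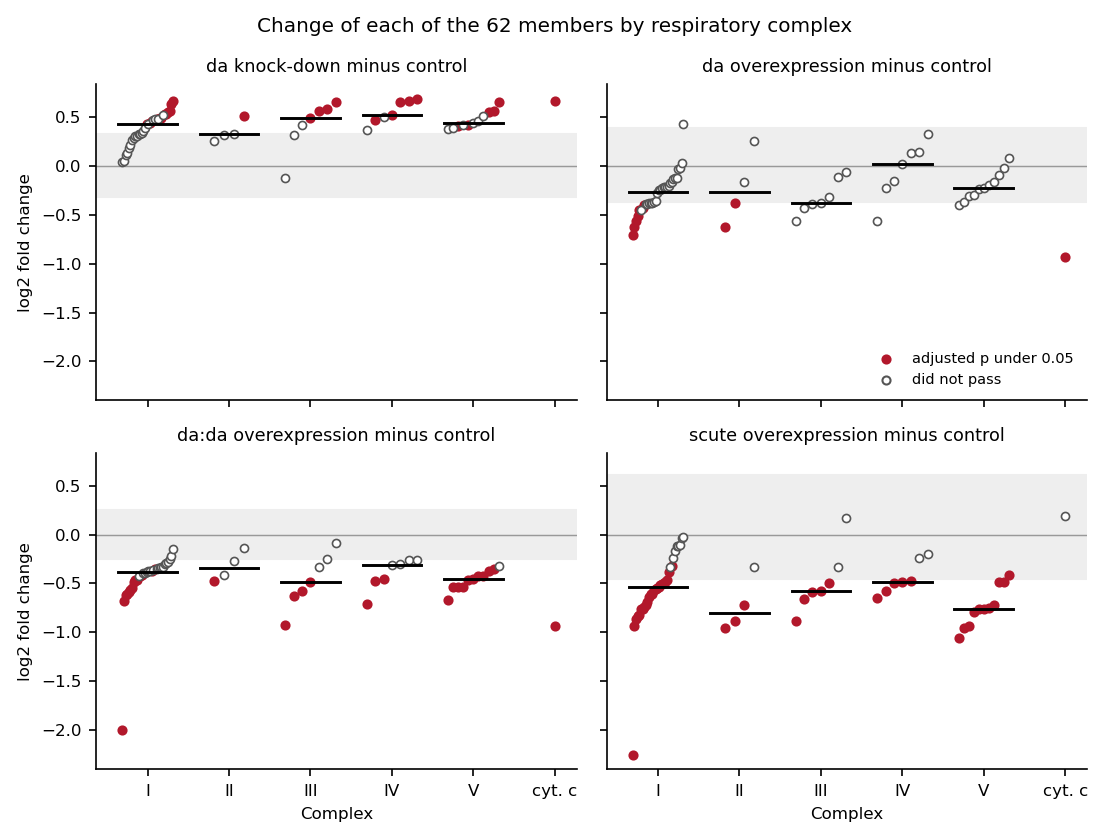
log2 fold change of each of the 62 genes without paralogs against the control of its batch, by complex. Filled points passed at an adjusted p under 0.05, black bars are medians of a complex and the grey band spans the quartiles of all genes tested. Medians of complexes I to V lie between 0.32 and 0.52 in the knock-down and between -0.80 and -0.49 with scute, and ND-MWFE stands apart at -2.00 with da:da and -2.25 with scute.

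Overexpression of da, with 2 libraries, was compared with the same 3 controls. In da overexpression 10 of 64 genes were lower, where 9.36% of all genes tested were lower, so that the share of members called, read against all genes, was not far above it. None was higher with edgeR or DESeq2, and 1 was at an unadjusted p under 0.05 (13.5% of all genes were higher). The median of the 62 genes was -0.24, beside -0.02 over all genes, and 54 of 62 changes were negative. In 23 of the tested genes both da overexpression libraries were below all controls, beside 25.2% of all genes, and in 3 both were above, beside 25.9%.

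The genes called lower were 7 of complex I, 2 of complex II and Cyt-c-p. Cyt-c-p was at 66.0 and 59.9 CPM in da overexpression, against 141, 109 and 110.5 CPM in control (log2 change -0.93 ± 0.17, adjusted p = 0.0041), the largest fall among the members. SdhA was at 179.6 and 150.03 CPM, against 271, 249 and 246 CPM (-0.63 ± 0.15, adjusted p = 0.015). ND-39 was at 47.7 and 38.6 CPM, against 63.8, 66.7 and 68.4 CPM (-0.62 ± 0.13, adjusted p = 0.0081). In these 3 genes both libraries lay below every control. ND-23 (-0.56 ± 0.12, adjusted p = 0.0093) and ND-75 (-0.40 ± 0.13, adjusted p = 0.0499) fell too, the last at the edge of the threshold.

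No gene of complexes III, IV or V passed in da overexpression with edgeR, where 3, 1 and 1 of them were lower at an unadjusted p under 0.05. DESeq2 called 2, 1 and 0. The median log2 change was -0.38 in complex III, 0.02 in complex IV and -0.23 in complex V. SdhB, unlike SdhA, was at 53.5 and 36.5 CPM, against 36.7, 40.3 and 35.8 CPM (0.26 ± 0.16, adjusted p = 0.275), and COX5A at 415 and 294 CPM, against 405, 399.5 and 377 CPM (-0.15 ± 0.18, adjusted p = 0.58). In SdhB 1 of the da overexpression libraries lay above the controls and the other among them, and in COX5A 1 lay above and the other below them. Without da overexpression replicate 2 a single gene was lower, without replicate 1 there were 16, and there were 4, 6 and 6 without control replicate 1, 2 or 3 and 6 and 6 without knock-down replicate 1 or 2.

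Set directly against da knock-down, the da overexpression libraries were lower in 44 of 64 genes, where 14.1% of all genes tested were lower. None was higher with edgeR, at an unadjusted p 1 was, and DESeq2 called 0, beside 16% of all genes. The median of the 62 genes was -0.69 beside 0.00 over all genes, and 61 of 62 changes were negative. Cyt-c-p differed most (-1.59 ± 0.18, adjusted p = 0.00014), followed among the named genes by ND-39 (-1.18 ± 0.13, adjusted p = 0.000165), UQCR-C2 (-1.03 ± 0.21, adjusted p = 0.0054) and SdhA (-0.94 ± 0.15, adjusted p = 0.00145). Genes called lower were 23 of 32 genes of complex I, 2 of 4 of II, 5 of 7 of III, 4 of 7 of IV and 9 of 11 of V. Without da overexpression replicate 2, 18 genes were lower, and with library size as the sole scaling 29 were.

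**Figure D4:**
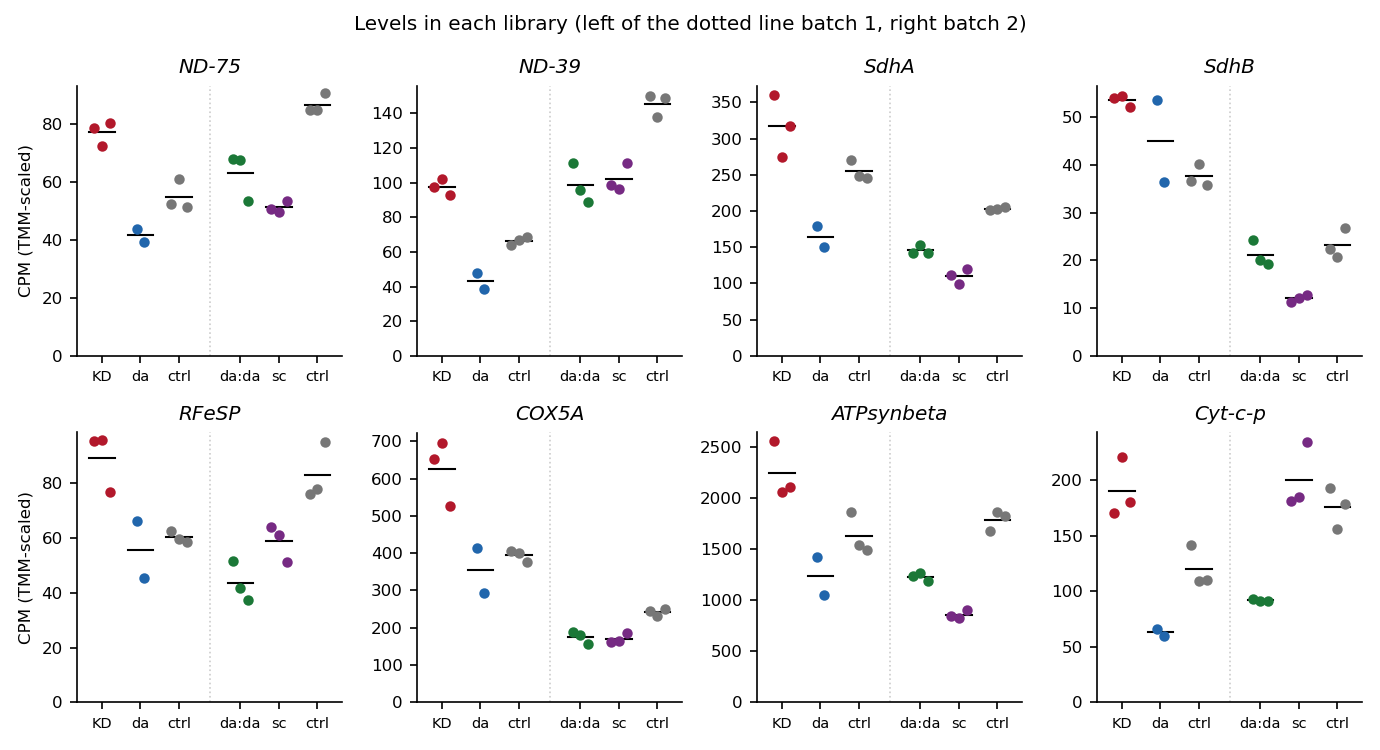
Levels of 8 genes in each library, in TMM-scaled CPM on axes that start at 0 (KD, da knock-down; da, da overexpression; sc, scute overexpression; ctrl, control of the batch). Points are libraries and bars are group means. Cyt-c-p is low in da and da:da libraries (59.9 to 93.2 CPM) and at control level in scute libraries, whereas ATPsynbeta and SdhB are lowest in scute libraries.

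Against its own batch 2 controls, the tethered homodimer da:da was accompanied by lower levels in all complexes. In da:da libraries 33 of 68 genes were lower than in control, where 6.52% of all genes tested were lower. None was higher with edgeR, 2 were at an unadjusted p under 0.05 and DESeq2 called 1, beside 5.39% of all genes. All 62 genes without paralogs had a negative log2 change, with a median of -0.41 (quartiles -0.52 and -0.33), beside -0.01 over all genes. In 56 genes every da:da library was below every control, beside 15.1% of all genes, and in 2 every one was above, beside 12.7%.

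In complex V, 10 of 11 genes fell with da:da. ATPsynbeta was at 1234, 1269 and 1193 CPM in da:da libraries, against 1675, 1865 and 1826 CPM in control (-0.54 ± 0.10, adjusted p = 0.0028). ATPsynC was at 1394, 1433 and 1278 CPM, against 1795, 1721 and 1788 CPM (-0.37 ± 0.10, adjusted p = 0.028), and ATPsynB at 276, 258 and 239 CPM, against 355, 349.9 and 414 CPM (-0.54 ± 0.10, adjusted p = 0.0036). All 3 had separate groups, and the largest fall of the complex was that of ATPsynF (-0.67 ± 0.16, adjusted p = 0.017).

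In complex I, 14 of 32 genes fell with da:da, including 5 of the 7 core subunit genes. ND-75 was at 68.01, 67.5 and 53.3 CPM, against 84.7, 84.9 and 90.5 CPM in control (-0.46 ± 0.11, adjusted p = 0.013), and ND-23 at 51.7, 46.0 and 39.3 CPM, against 68.2, 63.6 and 78.3 CPM (-0.62 ± 0.12, adjusted p = 0.00465). ND-39 (-0.56 ± 0.11, adjusted p = 0.0041), ND-30 (-0.42 ± 0.09, adjusted p = 0.009) and ND-42 (-0.42 ± 0.11, adjusted p = 0.0245) also fell. SdhA was the called gene of complex II (-0.48 ± 0.09, adjusted p = 0.0053), at 142, 153 and 142 CPM, against 201, 202 and 206 CPM. SdhB was at 24.2, 20.1 and 19.2 CPM, against 22.5, 20.7 and 26.8 CPM, with overlapping groups (-0.14 ± 0.13, adjusted p = 0.615).

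Genes of complex III and cytochrome c fell with da:da as well. RFeSP was at 51.6, 41.8 and 37.4 CPM, against 75.9, 77.6 and 95.1 CPM in control (-0.93 ± 0.14, adjusted p = 0.00096), and Cyt-c1 at 165, 169 and 142 CPM, against 229, 235 and 248 CPM (-0.58 ± 0.09, adjusted p = 0.0014). Cyt-c-p, a gene of arm 2L (16719932 to 16722644 in build BDGP6.28), was at 93.2, 90.9 and 91.2 CPM, against 193, 156 and 178 CPM (-0.94 ± 0.12, adjusted p = 0.00026). For all 3 genes no da:da library reached the lowest control. In complex IV, COX4 (-0.71 ± 0.14, adjusted p = 0.0061), COX5A (-0.46 ± 0.10, adjusted p = 0.011) and COX8 were the 3 of 7 that passed, COX8 being named here after its value was seen. The number of genes called lower was 14 and 20 without da:da replicate 3 or 2, and 18 without control replicate 3. Over all genes tested it was 622, 597 and 693 in those fits, against 925 with every library.

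Overexpression of scute was set against the same batch 2 controls. In scute libraries 48 of 68 genes were lower than in control, where 22.2% of all genes tested were lower, and 1 was higher, where 22.8% were. The median of the 62 genes was -0.56 (quartiles -0.76 and -0.39), beside 0.05 over all genes, and 60 of 62 changes were negative. In 51 genes every scute library was below every control, beside 26% of all genes, and in 2 every one was above, beside 28.2%. The count of genes called lower stayed between 41 and 51 when any 1 library was left out.

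All 11 complex V genes without paralogs fell with scute. ATPsynbeta, a gene of chromosome 4 (1031484 to 1034917 in build BDGP6.28), was at 846, 825 and 902 CPM in scute libraries, against 1675, 1865 and 1826 CPM in control (log2 change -1.06 ± 0.10, adjusted p = 2.8e-06). ATPsynC was at 1044, 976 and 1101 CPM, against 1795, 1721 and 1788 CPM (-0.76 ± 0.10, adjusted p = 4.5e-05), and ATPsynB at 193, 187 and 197 CPM, against 355, 349.9 and 414 CPM (-0.96 ± 0.10, adjusted p = 8.6e-06). Groups were far apart in each, and complex V made up 45.1% of the summed CPM of all members in scute libraries, against 50.97% in controls.

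The median log2 change with scute was -0.80 in complex II, -0.76 in V, -0.58 in III, -0.54 in I and -0.49 in IV. In complex II, 3 of 4 genes fell. SdhB was at 11.3, 12.04 and 12.8 CPM in scute libraries, against 22.5, 20.7 and 26.8 CPM in control (-0.95 ± 0.14, adjusted p = 0.00011), and SdhA at 111, 99.1 and 119.8 CPM, against 201, 202 and 206 CPM (-0.88 ± 0.09, adjusted p = 9.9e-06). In complex I, 24 of 32 genes fell, including all 7 core subunit genes, whose median was -0.74, beside -0.50 over the 25 accessory genes. ND-75 was at 50.6, 49.7 and 53.4 CPM, against 84.7, 84.9 and 90.5 CPM (-0.76 ± 0.11, adjusted p = 8.7e-05), and ND-30 at 65.2, 62.035 and 70.6 CPM, against 122, 125 and 131 CPM (-0.93 ± 0.09, adjusted p = 4.8e-06). Every scute library was below every control in these 4 genes.

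In complexes III and IV, 5 of 7 genes each fell with scute. UQCR-C1 changed most in complex III (-0.88 ± 0.11, adjusted p = 3.7e-05), and RFeSP was at 64.0, 61.2 and 51.1 CPM, against 75.9, 77.6 and 95.1 CPM in control (-0.50 ± 0.14, adjusted p = 0.012). In complex IV, COX4 (-0.65 ± 0.14, adjusted p = 0.0025) and COX5A (-0.50 ± 0.10, adjusted p = 0.00146) fell, while COX5B did not pass (-0.24 ± 0.13, adjusted p = 0.16). Cyt-c-p was at 181, 185 and 234 CPM, against 193, 156 and 178 CPM, so that groups overlapped (0.19 ± 0.12, adjusted p = 0.24). With library size as the sole scaling, 21 genes were lower, 8 of them in complex V, and 11 were higher, among them Cyt-c-p, ND-B18 and UQCR-11. Over all 14190 genes tested, 1648 were lower and 5797 higher in that setting.

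Markers of other cell types were counted beside the shares of all genes given above for each comparison. In scute libraries 12 of 14 enteroendocrine markers were higher and 2 (NPF and Mip) lower, with summed levels of 5324 to 8789 CPM, against 4146 to 4572 CPM in controls, and pros, a defining factor of enteroendocrine cells, averaged 547 CPM, against 39.9 CPM. Of 7 progenitor markers 4 were higher and 2 (klu and esg) lower there. In da knock-down 8 of 13 tested enteroendocrine markers and 5 of 7 progenitor markers were lower and 5 of 14 enterocyte markers were higher, and the enterocyte sum was 863 to 1309 CPM, against 540.0 to 719.7 CPM in controls. Progenitor sums were 531 to 642 CPM in da knock-down, against 908 to 1049.7 CPM in controls. The part of these cell types in the changes of the oxidative phosphorylation genes was not tested.

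With da overexpression 3 of 7 progenitor markers were higher and 6 of 13 enteroendocrine markers lower, with a progenitor marker sum of 1084 to 1363 CPM, against 908 to 1049.7 CPM in controls. The enteroendocrine sum was 58.7 CPM in 1 da library and 419.9 CPM in the other, against 191 to 249 CPM in controls, so that they lay on either side of the controls. With da:da 4 of 7 progenitor markers were higher and 3 of 14 enteroendocrine markers lower, and the progenitor sum was 2433 to 2551.5 CPM, against 1079 to 1269 CPM in controls. Enteroendocrine sums were 4835 to 8436 CPM with da:da, against 4146 to 4572 CPM in controls. Enterocyte markers split, with 2 higher and 1 lower of 14 with da overexpression and with da:da, and 4 higher and 3 lower with scute. Over all genes tested, 13.5% were higher and 9.36% lower with da, 5.39% and 6.52% with da:da, and 22.8% and 22.2% with scute. The enterocyte counts with da and with scute were near those shares. Of the visceral muscle markers 1 of 6 was higher in da knock-down and 2 of 6 with da overexpression. Of 10 tested in batch 2, 0 moved with da:da and 2 were higher and 1 lower with scute. Haemocyte and germline markers summed to at most 70.0 and 18.2 CPM in any library, and the haemocyte gene He had no count in batch 1.

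The difference between scute and da:da was tested directly. Here 19 of 68 genes were lower and 5 were higher in scute libraries than in da:da libraries, beside 21.2% and 21.4% of all genes, so neither share was far from that of all genes, and the median of the 62 genes was -0.08. Complex V had 7 of 11 genes lower and complex II 3 of 4, while of complex IV only the paralog COX4L passed (among its other 7 genes edgeR and DESeq2 called 0 lower, and 1 was lower at an unadjusted p under 0.05). ATPsynbeta was lower (-0.52 ± 0.10, adjusted p = 0.00077), as were SdhB (-0.81 ± 0.14, adjusted p = 0.00042), ND-30 (-0.51 ± 0.09, adjusted p = 0.00059) and UQCR-C1 (-0.40 ± 0.11, adjusted p = 0.01).

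The 5 genes higher in scute than in da:da libraries were Cyt-c-p, RFeSP, ND-B18 and the paralogs ATPsynepsilonL and COX4L. Cyt-c-p averaged 199.7 ± 29.7 CPM in scute libraries and 91.8 ± 1.26 CPM in da:da libraries (1.12 ± 0.12, adjusted p = 1.15e-05; SD, n = 3 each). RFeSP, at 58.8 ± 6.79 and 43.6 ± 7.26 CPM, differed less and had overlapping groups (0.43 ± 0.14, adjusted p = 0.026), and the accessory complex I gene ND-B18 was at 51.7 ± 4.72 and 41.3 ± 6.26 CPM (0.32 ± 0.12, adjusted p = 0.0446). With library size as the sole scaling, 27 genes were higher and 1 (SdhB) lower, beside 4757 and 1746 of all 14190 genes tested. The median of the 62 genes minus that of all genes was -0.085 in that setting and -0.093 with TMM. Genes lower numbered 11 without da:da replicate 1 and 12 without scute replicate 2, and genes higher 2 without da:da replicate 2 or 3 or scute replicate 2.

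**Figure D5:**
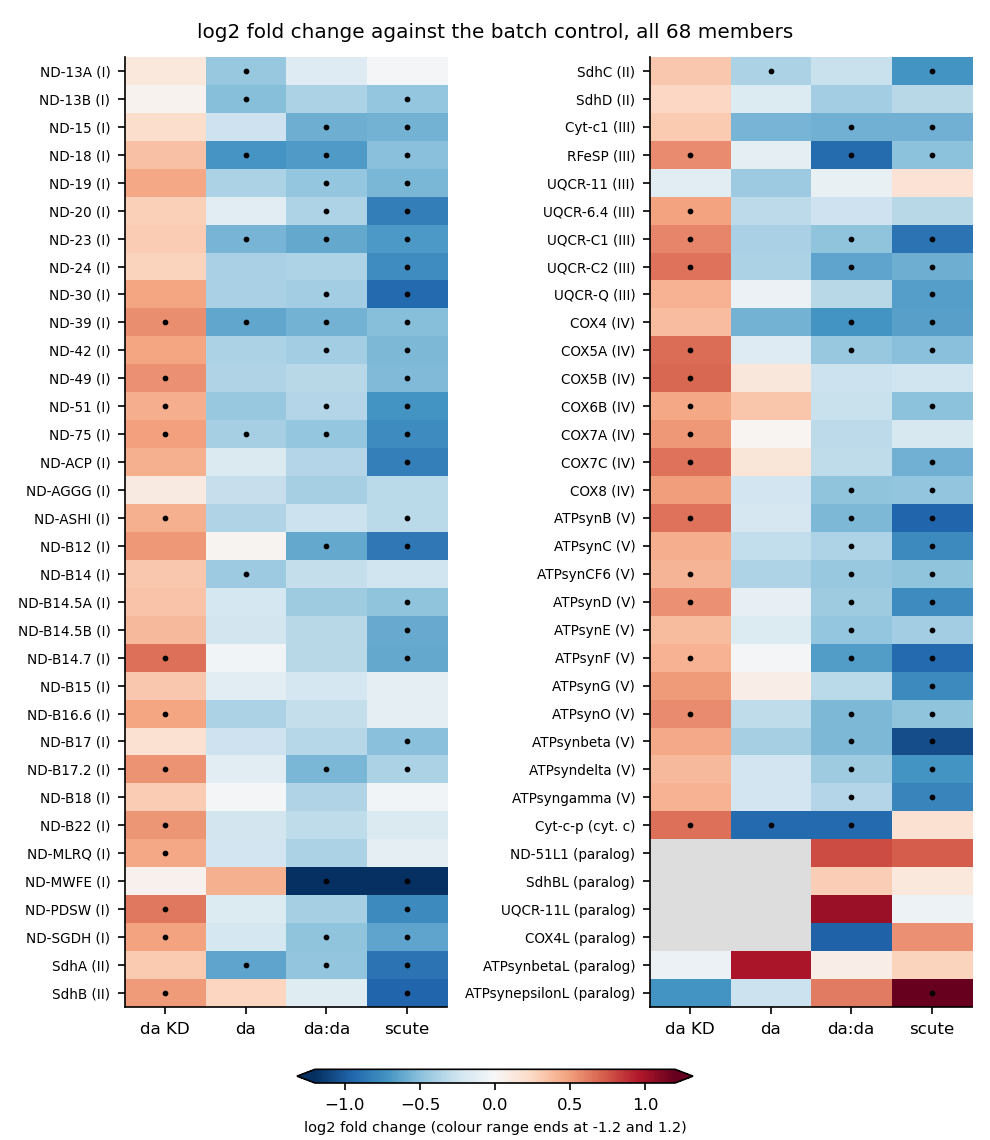
log2 fold change of all 68 genes against the control of the batch (columns from left: da knock-down, da, da:da and scute overexpression). Red is higher and blue is lower than control, dots mark an adjusted p under 0.05 and grey marks genes that did not pass the filter on low counts in batch 1. The first column is positive in 61 of the 62 genes without paralogs, the third is negative in all 62, and Cyt-c-p is low with da and da:da but not with scute.

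The batches share no library, so changes of one can be set beside those of the other. Of the 28 genes higher in da knock-down, 15 were lower with da:da (53.6% of the 28 and 45.5% of the 33), beside 33 of all 62 genes, and 21 were lower with scute (75% of the 28 and 43.75% of the 48), beside 48 of all 62, so that neither share was far from that of all 62 genes. Spearman's rho between the changes in da knock-down and those with da:da was -0.09 across genes, and with scute -0.08, as a description. Of the 10 genes lower with da overexpression, 6 were lower with da:da (60% of the 10 and 18.2% of the 33), beside 33 of all 62 genes. They were ND-18, ND-23, ND-39, ND-75, SdhA and Cyt-c-p. With scute, 7 of the 10 were lower (70% of the 10 and 14.6% of the 48), beside 48 of all 62. Neither share was far from that of all 62 genes.

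The difference between changes in the 2 batches was tested in 1 fit of all 17 libraries. The change with da:da differed from that with da in 1 gene, ND-MWFE, which was lower, where 4.49% of all genes were. None was higher (edgeR, 0 at an unadjusted p under 0.05), beside 2.5% of all genes. The difference for Cyt-c-p was 0.07 ± 0.21 (adjusted p = 0.94), and that of RFeSP differed by -0.74 ± 0.23 without passing (adjusted p = 0.0675). The change with scute was below that in da knock-down in 55 of 68 genes, where 18.9% of all genes were lower, and above it in 1 (ATPsynepsilonL), where 16.8% were. Cyt-c-p did not pass there (-0.49 ± 0.20, adjusted p = 0.07).

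A few members went their own way. ND-MWFE, an accessory complex I gene of arm 2R (13158666 to 13160190 in build BDGP6.28), was at 0.907, 0.866 and 0.978 CPM with da:da and 0.650, 0.874 and 0.783 CPM with scute, against 3.65, 3.79 and 3.58 CPM in control (-2.00 ± 0.20, adjusted p = 4.15e-05, and -2.25 ± 0.20, adjusted p = 2.4e-06). It was at 7.26 and 7.33 CPM with da and 5.64, 5.73 and 5.48 CPM in da knock-down, against 6.283, 4.74 and 5.21 CPM, and did not pass in either (0.43 ± 0.17, adjusted p = 0.10, and 0.05 ± 0.15, adjusted p = 0.85). It is named here after its values were seen, and 35% of its exon bases are shared with Nrk and TppII, and reads over shared bases were not counted. Shared bases were over 20% in 3 more members: UQCR-6.4 (40.5%), ATPsyndelta (35.6%) and ND-B22 (26.1%).

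UQCR-11, a small complex III gene, passed in no comparison with control, at -0.12 in da knock-down, -0.43 with da, -0.09 with da:da and 0.17 with scute. Among paralogs, ATPsynepsilonL rose with scute, at 0.872, 1.09 and 0.872 CPM, against 0.0738, 0.403 and 0.259 CPM in control (1.96 ± 0.43, adjusted p = 0.0026), from 63, 86 and 69 counts, against 4, 19 and 15. COX4L was at 0.927, 1.22 and 1.06 CPM with scute and at 0.254, 0.456 and 0.414 CPM with da:da, against 0.793, 0.721 and 0.674 CPM in control, and differed between the first 2 groups (1.52 ± 0.28, adjusted p = 0.00089). These are levels near 1 CPM.

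Other genes of the pathway were counted from lists, to be read beside the shares of all genes given above for each comparison. Of 5 tested subunit genes with other symbols, 4 (blw, levy, sun and cype) were higher in da knock-down and 0 with da, and of 6 tested in batch 2, 3 were lower with da:da and 4 with scute. The gene blw, which encodes the alpha subunit beside ATPsynbeta in the catalytic head, changed by 0.50 ± 0.11 in da knock-down (adjusted p = 0.014), -0.36 ± 0.13 with da (adjusted p = 0.071), -0.52 ± 0.09 with da:da (adjusted p = 0.0022) and -0.99 ± 0.09 with scute (adjusted p = 2.6e-06). Of the 13 protein-coding genes of the mitochondrial genome, 1 (mt:CoII, 0.40 ± 0.12, adjusted p = 0.048) was higher in da knock-down, 0 passed with da, 8 were lower with da:da and all 13 with scute, where their median was -0.74. Those transcripts summed to 38285 to 41972 CPM with scute and 45937 to 47207.5 CPM with da:da, against 58105 to 72582 CPM in controls.

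Of 15 genes listed for the TCA cycle, 6 were higher in da knock-down, and 3 were lower with da, 11 with da:da and 14 with scute, the last with a median of -1.11. That list includes Pdha, Pdhb and muc, genes of pyruvate dehydrogenase, which feeds the cycle. All of these were among the genes lower with scute, and muc was among those lower with da:da. Over all genes tested, 11.2% were higher in da knock-down, and 9.36%, 6.52% and 22.2% were lower with da, da:da and scute. The mitochondrial aconitase gene mAcon1 averaged 74.0 CPM with scute and 141 CPM with da:da, against 217 CPM in control (-1.55 ± 0.10, adjusted p = 2.5e-07, and -0.62 ± 0.10, adjusted p = 0.00146). All 12 glycolysis genes were higher in da knock-down, with a median of 0.84, and 5 were lower with da, 10 with da:da and 8 with scute, where 1 (Pfk) was higher. Ldh, lactate dehydrogenase, fell by 1.62 on the log2 scale with da (± 0.16, adjusted p = 9.5e-05) and by 1.52 with da:da (± 0.14, adjusted p = 1.7e-05), and rose by 0.84 ± 0.13 in da knock-down (adjusted p = 0.0023).

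Genes that help build or regulate the chain were counted beside the shares of all genes. Over all genes tested, 11.2% were higher and 9.16% lower in da knock-down and 13.5% and 9.36% with da. With da:da they were 5.39% and 6.52%, and with scute 22.8% and 22.2%. Of 14 tested assembly factor genes 3 were lower and 0 higher in da knock-down, 5 were lower with da, 2 with da:da and 10 with scute. Of 12 tested genes listed as regulators of mitochondrial biogenesis, 1 (CrebA) was higher and 2 (ewg and tam) lower in da knock-down. With da 1 was higher and 4 lower, with da:da 0 and 2, and with scute 3 and 7. The gene srl, the fly homologue of the PGC-1 coactivators, did not pass in da knock-down (-0.05 ± 0.11, adjusted p = 0.82) and fell with da (-0.57 ± 0.13, adjusted p = 0.0099), da:da (-0.63 ± 0.09, adjusted p = 0.00076) and scute (-1.65 ± 0.09, adjusted p = 8.8e-08). TFAM, which packages mitochondrial DNA, fell with scute alone among the comparisons with control (-0.71 ± 0.10, adjusted p = 9.1e-05). Of the carrier and pore genes of the mitochondrial membranes, 3 of 10 were higher in da knock-down, 1 higher and 1 lower with da, 5 of 11 lower with da:da, and 2 higher and 6 lower with scute. The counts of regulators and of carriers higher with da and with scute were near the shares of all genes.

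At an adjusted p under 0.05, the authors' deposited table has 49 of the 68 members higher and 0 lower in da knock-down. With da 3 were higher and 22 lower in the authors' deposited table, with da:da 0 and 34, and with scute 1 and 47. All genes called with TMM scaling in da knock-down (28) and with da (10) were also called in the authors' deposited table, as were 31 of 33 with da:da and 46 of 48 called lower with scute.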

How the data were processed

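RNA-seq of 17 libraries in 2 batches was analysed. Gene counts were made by the authors with featureCounts 2.0.2 on BDGP6.28 (annotation release 101) without a strand option, per the file headers, although the labels name a stranded kit. Multi-mapping and ambiguous reads were not counted, and mates of batch 2 pairs were counted apart, per the file headers. The aligner is not given in the sources used here. The authors' deposited table gives log2 fold changes and adjusted p-values from DESeq2, per its title sheet. The 17 columns of per-sample values in a sheet without gene identifiers were not used.

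Members were found by symbol in the authors' sheets and joined to the counts by gene identifier. The members, gene lists and tests were chosen with earlier results of these data known. Counts were fitted per batch, with 1 mean per group, in edgeR 4.0.16 (R 4.3.3, limma 3.58.1): TMM scaling, filterByExpr, the quasi-likelihood F test and Benjamini-Hochberg adjustment over all genes tested (9540 in batch 1, 14190 in batch 2, 14083 in the fit of all libraries). Genes were called at an adjusted p under 0.05. Batch 1 had a common biological variation (BCV) of 0.219 and batch 2 one of 0.203. SE is the log2 change divided by the root of F. CPM are scaled by TMM, and CPM/kb divides by the exon length in the files; even coverage after amplification was not tested. The test was tried on simulated counts first. DESeq2 1.42.0, other scalings and filters, a replicate block, and leaving out each library were alternatives. Tables and plots used Python 3.11.15, pandas 2.3.3, numpy 2.4.6 and matplotlib 3.10.9.

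Named genes are 12 chosen by role (ND-75, ND-42, SdhA, SdhB, RFeSP, Cyt-c1, Cyt-c-p, COX4, COX5A, ATPsynbeta, ATPsynC and ATPsynF), the called gene with the largest rise and fall per complex and comparison at 10 CPM or more, and genes called against the main direction. Others were named after their values were seen. Deviations from group means of da knock-down and control libraries correlated at 0.531, 0.204 and 0.451 for the same numbers 1 to 3. For different numbers they correlated at -0.476 to 0.00569. Each replicate is a separate pool of midguts, per the labels. No 2 replicates agreed within sampling noise. Sequences and promoters were not analysed here.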

Additional observations from a re-analysis of the deposited data

Results flagged for a closer look

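The changes with scute and with da:da, both taken against the same batch 2 controls, differed from each other in a direct edgeR test for 13 of the genes named. Several of them were named because this same test called them, so their number is not a result. Of all 68 members 5 were higher and 19 lower in it, beside 21.4% and 21.2% of all genes tested. The change with scute minus that with da:da was 1.12 for Cyt-c-p, 0.43 for RFeSP and 0.32 for ND-B18 on the log2 scale. For the paralogs COX4L and ATPsynepsilonL it was 1.52 and 1.33, at levels near 1 CPM. It was negative in complex V, at -0.52 for ATPsynbeta, -0.42 for ATPsynB and -0.40 for ATPsynC. In complex II it was -0.81 for SdhB and -0.41 for SdhA, and elsewhere -0.51 for ND-30, -0.30 for ND-75 and -0.40 for UQCR-C1. With library size as the sole scaling ND-75 turned positive, and SdhB was the only member still called lower with scute than with da:da. Over all 14190 genes tested, 4757 were higher and 1746 lower in that setting.

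The change of ND-MWFE with da:da minus its change with da was -2.36 ± 0.26 (adjusted p = 1.44e-05 in edgeR over all libraries), with all da:da libraries below all batch 2 controls and both da libraries above all batch 1 controls. The batches differ in read length, and the part of that in this difference was not tested.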

How the results depend on the processing

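Genes called higher and lower are given in that order. With library size as the sole scaling, they were 0 and 1 in da knock-down, 0 and 17 with da, 0 and 22 with da:da, 11 and 21 with scute, 1 and 29 for da against da knock-down, and 27 and 1 for scute against da:da. Over all 9540 genes tested in batch 1 they were 484 and 2682, 1041 and 968, and 2285 and 681 for da against da knock-down. Over all 14190 in batch 2 they were 1061 and 606, 5797 and 1648, and 4757 and 1746 for scute against da:da. The median of the 62 genes minus that of all genes was 0.457 in da knock-down and -0.607 with scute. With TMM it was 0.457 and -0.610. That setting also turned ND-B18 with scute to 0.41 (adjusted p = 0.012), and COX5A and ND-75 in scute against da:da to 0.29 and 0.036. In 1 fit of all libraries, 1 was higher and 20 lower with da, 20 lower with da:da, 1 higher for da against da knock-down and 3 higher for scute against da:da, and 3 were higher there too with TMM computed without ribosomal protein and mitochondrial genes. With the groups compared alone, 5 were lower with da. DESeq2 called 1 higher with da:da. With scute, 0 were higher under the stricter filter, and 2 with the replicate block or with batch 2 counts halved. Without a filter 1 was higher for da against da knock-down. The replicate block with the 2 groups alone, chosen after seeing the data, called 45 higher in da knock-down, against 31 with the whole batch. Same-numbered da libraries and controls correlated at -0.0239 and -0.282, da:da at 0.272, 0.027 and 0.243, and scute at 0.072, 0.0258 and 0.0525. The da:da values for numbers 1 and 3 were above the 0.204 of da knock-down number 2. Different-numbered da:da libraries and controls correlated at -0.254 to 0.0995, which spans the 0.027 of number 2. Da library 1 and control 2, also with different numbers, correlated at 0.282. These values do not settle whether da:da libraries and controls were paired. For da, da:da and scute the block moved no count of lower calls by over 1.5 times.

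Leaving out 1 library at a time, genes called higher ranged over 3 to 37 in da knock-down (lower 0 to 0), 0 to 1 with da, 0 to 1 with da:da, 1 to 2 with scute, 0 to 1 for da against da knock-down and 2 to 5 for scute against da:da. Genes called lower ranged over 1 to 16 with da, 14 to 38 with da:da, 41 to 51 with scute, 18 to 58 for da against da knock-down and 11 to 27 for scute against da:da. Over all genes tested, genes called lower ranged over 597 to 1016 with da:da, 2753 to 3245 with scute and 2563 to 3149 for scute against da:da. The causes were not tested. Counts are lowest, and counting error largest, for the paralogs, at group means of up to 1.48 CPM, for ND-MWFE, at 0.917 CPM with da:da and 0.769 CPM with scute, and for ND-AGGG, at 2.75 CPM in batch 1 controls.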
